A study of Mus musculus with 6 samples.

Results

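Aquaporins are membrane channels that pass water along an osmotic gradient, and some of them, the aquaglyceroporins, also pass glycerol. In the lacrimal gland the acinar and duct cells move salt into the lumen and water follows, and Aqp5 is the water channel known from the apical membrane of these cells. Aqp1 is known from endothelium and red blood cells, Aqp4 from basolateral membranes of epithelia and from glia, and Aqp8 from exocrine glands, liver and gut. Aqp3, known from skin, Aqp7, known from fat, and Aqp9, known from liver and leukocytes, are aquaglyceroporins, and Aqp11 is an intracellular family member. The 8 genes Aqp1, Aqp3, Aqp4, Aqp5, Aqp7, Aqp8, Aqp9 and Aqp11 were taken by symbol from the 22564 protein-coding genes of the deposited mRNA table. The remaining family members in the table, Aqp2, Aqp6, Aqp12 and Mip (the lens aquaporin), are given beside them, so that 12 aquaporins are described in all. The questions were which aquaporins the gland expresses besides Aqp5, and whether any of them was higher where Aqp5 was lost.

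RNA of lacrimal glands was depleted of ribosomal RNA and sequenced, with 3 AQP5-/- and 3 AQP5+/+ libraries. AQP5-/- mice carry a knockout of Aqp5 made with CRISPR/Cas9, and AQP5+/+ mice are wild type. Both groups are C57BL/6 and 6 months old, and the labels name no treatment. The sources used here do not give the stretch of Aqp5 that was removed, so reads left on Aqp5 are known only per gene. The study gives the n of these profiles as mice, and the labels do not describe the individual animals. In bulk tissue, fewer cells of a type and less RNA per cell cannot be told apart.

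Levels are given in FPKM, fragments scaled to transcript length and to the depth of the library, so that genes of different length can be compared. Libraries held 11244579 to 13723134 estimated fragments on protein-coding genes. All 9 lacrimal acinar markers on the list used were measured and passed the filter on low values. Their summed level was 4810, 3368 and 2513 FPKM in AQP5-/- libraries, against 5177, 3797 and 6182 FPKM in AQP5+/+ libraries. Car6 was the highest of them in every library. It had 3347, 1197 and 858 FPKM in AQP5-/- libraries, against 3532, 2101 and 4719 FPKM in AQP5+/+ libraries. Of the 9 markers, 5 had a log2 difference (AQP5-/- minus AQP5+/+) below 0, against 67.0% of all genes tested. Summed levels of 4 Y-linked genes (Ddx3y, Eif2s3y, Kdm5d and Uty) were 49.7, 58.0 and 52.1 FPKM in AQP5-/- libraries, against 0.320, 33.0 and 0.185 FPKM in AQP5+/+ libraries. So 4 libraries, the AQP5-/- ones and AQP5+/+ replicate 2, held Y-linked transcripts, and AQP5+/+ replicates 1 and 3 nearly lacked them. The sources used here do not give the sex of these mice. Salivary transcripts were high in AQP5-/- replicate 1 (summed 19324 FPKM) and AQP5+/+ replicate 2 (1748 FPKM), and 9.72 to 27.7 FPKM in the other libraries. Of these, AQP5-/- replicate 1 had the highest acinar sum and Car6 level of its group, and AQP5+/+ replicate 2 the lowest of its group. The part of salivary tissue in the acinar sums was not tested. Skeletal muscle transcripts summed to 88.1 FPKM in AQP5+/+ replicate 2 and to 0.841 to 3.27 FPKM in the others.

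The 250 bases before the transcription start of the aquaporins with the highest levels in the AQP5+/+ gland, Aqp5 and Aqp8, are shown from RefSeq (GRCm38.p6), because the results turn on these genes. That of Aqp5 lies at chr15:99590778-99591027 and that of Aqp8 at chr7:123462044-123462293, both on the plus strand. Capitals mark matches to motifs known from promoters, searched on both strands. The first motif, bound by the TATA-binding protein, was spelled TATAAA. The second, a site known for NF-Y, was spelled CCAAT, and the third, the GC box known for Sp1, was spelled GGGCGG.
Aqp5: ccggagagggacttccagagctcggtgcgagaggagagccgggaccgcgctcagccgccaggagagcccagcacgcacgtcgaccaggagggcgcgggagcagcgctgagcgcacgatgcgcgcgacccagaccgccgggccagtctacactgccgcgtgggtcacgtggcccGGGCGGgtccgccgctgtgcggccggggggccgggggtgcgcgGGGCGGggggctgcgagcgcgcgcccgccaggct
Aqp8: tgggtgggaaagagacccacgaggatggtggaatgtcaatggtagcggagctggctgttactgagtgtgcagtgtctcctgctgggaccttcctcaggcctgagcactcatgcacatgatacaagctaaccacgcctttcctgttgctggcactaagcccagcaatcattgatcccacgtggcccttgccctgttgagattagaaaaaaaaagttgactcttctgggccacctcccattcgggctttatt
The Aqp5 window held 2 GC boxes, 77 and 34 bases before the start, which do not overlap each other or another motif, and neither of the other motifs. The Aqp8 window held none of these letters. Among all 32851 windows of this length, 12.4% held TATAAA, 33.8% CCAAT and 32.7% GGGCGG. The Aqp5 window was 78.4% G and C and the Aqp8 window 52.4%, against a median of 52.4% (quartiles 45.2% and 61.2%). A match is a description of the letters only.

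Aqp5 was the most abundant aquaporin of the AQP5+/+ gland and was nearly absent from the AQP5-/- gland. The gene lies at chr15:99591028-99594829 (GRCm38). Its level was 0.378, 0.177 and 0.170 FPKM in AQP5-/- libraries, against 153.8, 89.0 and 141.8 FPKM in AQP5+/+ libraries. The groups were far apart, and the AQP5-/- values stood for about 10, 4 and 5 fragments, against 4449, 2504 and 3117 in AQP5+/+ libraries. The AQP5-/- mean was 0.188% of the AQP5+/+ mean. On the log2(FPKM + 0.5) scale Aqp5 fell by 7.41 (SE 0.233, 95% interval -7.95 to -6.87, adjusted p = 8.62e-06 with limma), which was the lowest log2 difference of the 11772 genes tested. The size of this difference depends on the pseudocount, with -8.57 at 0.1 and -6.67 at 1, because the AQP5-/- libraries are near 0. In AQP5+/+ libraries Aqp5 stood between percentiles 98.0 and 98.8 of the genes detected. The lowest AQP5+/+ value and the highest AQP5-/- value belonged to the libraries with salivary transcripts, and without these libraries the log2 difference was -7.78. Against AQP5+/+ replicate 2 alone, in the 4 libraries with Y-linked transcripts, it was -6.93, given as a value only.

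**Figure D1:**
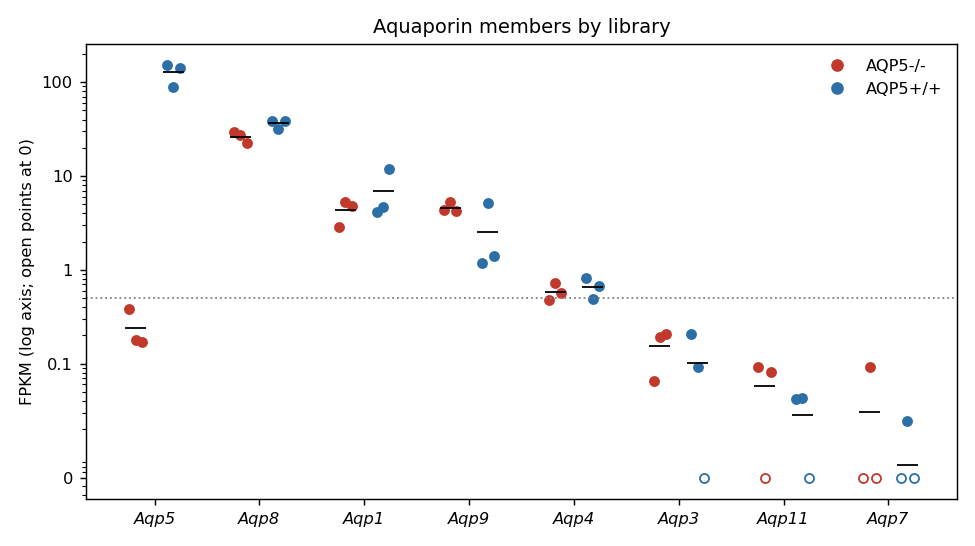
FPKM of the 8 aquaporin genes on a log axis, with AQP5-/- libraries (red) left of AQP5+/+ libraries (blue), 1 point for each of 3 libraries per group, black bars at the mean, open points at 0 and a dotted line at the 0.5 FPKM used as a filter on the mean. Only Aqp5 shows a wide gap between genotypes (0.170 to 0.378 against 89.0 to 153.8 FPKM), Aqp8 is the next most abundant, and Aqp3, Aqp11 and Aqp7 lie at or below 0.209 FPKM in every library.

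Of the 8 genes, 5 had a mean of at least 0.5 FPKM and were tested, namely Aqp1, Aqp4, Aqp5, Aqp8 and Aqp9. A gene was called where its fold was 2 or more with p under 0.05 before adjustment. By this threshold 1 of them (Aqp5) was lower in AQP5-/- and 0 were higher. Over all genes tested, 0.883% were called lower and 1.16% higher, which makes 2.04% in either direction, and 0.017% reached an adjusted p under 0.05. The log2 difference was below 0 for 4 of the 5 aquaporins, among which Aqp4, at -0.09, turned to 0.05 with median centring, against 67.0% of all genes. The median log2 difference was -0.47 over the 5 aquaporins and -0.12 over all genes, so that the whole table was shifted slightly below 0. With each library centred on its median, the median over all genes was 0.01. The top 10 genes took 16.3% of the counts in AQP5+/+ replicate 1 and 32.4% to 36.4% in the other libraries. The part of this in the shift was not tested. Outside Aqp5, the unadjusted p was under 0.05 for 1 aquaporin, Aqp8, and with edgeR and DESeq2 on estimated fragments 0 aquaporins were called higher.

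Aqp8 was the second most abundant aquaporin and the main one left in the AQP5-/- gland. Its level was 29.3, 27.1 and 22.5 FPKM in AQP5-/- libraries, against 38.9, 31.8 and 39.0 FPKM in AQP5+/+ libraries. All AQP5-/- values lay below all AQP5+/+ values, as was the case for 11.1% of the genes tested. The log2 difference was -0.47 (SE 0.151, 95% interval -0.82 to -0.12), with an unadjusted p of 0.0149 and an adjusted p of 0.431 with limma. It did not pass the threshold, and an unadjusted p under 0.05 with a lower level was found for 8.12% of all genes. The AQP5-/- mean of 26.3 ± 3.45 FPKM was 72.0% of the AQP5+/+ mean of 36.6 ± 4.16 FPKM (SD, n = 3 each). Aqp8 was highest in the AQP5+/+ libraries without Y-linked transcripts, and AQP5+/+ replicate 2 lay nearest to the AQP5-/- libraries. All libraries with Y-linked transcripts lay below those without for Aqp8 and for 35.6% of all genes. Against AQP5+/+ replicate 2 alone the log2 difference was -0.28. The interval over all 6 libraries lay below 0. The unadjusted p with limma was 0.0636 without AQP5-/- replicate 3 and 0.0502 without AQP5+/+ replicate 3. Without AQP5+/+ replicate 2 the log2 difference was -0.57 (adjusted p = 0.0580 with limma). Without both libraries with salivary transcripts it was -0.65 (adjusted p = 0.0708 with limma). In these fits without AQP5+/+ replicate 2, genotype and Y-linked transcripts coincide and cannot be told apart.

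Aqp1 was present at a few FPKM in both genotypes. Its level was 2.85, 5.23 and 4.81 FPKM in AQP5-/- libraries, against 4.13, 4.68 and 11.9 FPKM in AQP5+/+ libraries. The groups overlapped, and AQP5+/+ replicate 3 stood above all other libraries. The log2 difference was -0.51 (SE 0.389, 95% interval -1.41 to 0.39, adjusted p = 0.561 with limma), and without AQP5+/+ replicate 3 it was -0.07. The same library had the highest summed level of 10 endothelial markers, which was 12.8, 23.8 and 17.7 FPKM in AQP5-/- libraries, against 26.3, 19.8 and 33.8 FPKM in AQP5+/+ libraries. Of the 9 endothelial markers tested, 9 had a log2 difference below 0, against 67.0% of all genes, and 0 passed the threshold. Emcn, an endothelial sialomucin, had 1.05, 1.37 and 1.12 FPKM in AQP5-/- libraries, against 3.12, 1.99 and 3.22 FPKM in AQP5+/+ libraries. Emcn was the marker of smallest p among the 9. Its groups did not overlap, as for 11.1% of all genes in this direction, and its log2 difference was -0.95 (adjusted p = 0.431 with limma). It passed the threshold at a pseudocount of 0.1 (-1.15), with edgeR (-1.04) and DESeq2 (-1.04) on estimated fragments, with the libraries that hold salivary transcripts left out (-1.08), and with replicate 2 of AQP5-/- (-1.03) or of AQP5+/+ (-1.13) left out. It was -0.58 with a term for Y-linked transcripts. Erythroid markers, which mark the other known site of Aqp1, summed to 55.2, 147.4 and 66.1 FPKM in AQP5-/- libraries and to 31.9, 37.4 and 92.1 FPKM in AQP5+/+ libraries. The part of blood vessels and blood in the Aqp1 values was not tested.

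Aqp4, which sets water permeability at the base of epithelial cells, was low. Its level was 0.479, 0.719 and 0.562 FPKM in AQP5-/- libraries, against 0.809, 0.493 and 0.666 FPKM in AQP5+/+ libraries. The groups overlapped, and the values stood for 46 to 60 fragments in AQP5-/- and 50 to 84 in AQP5+/+ libraries. The log2 difference was -0.09 (SE 0.239, 95% interval -0.64 to 0.47, adjusted p = 0.887 with limma), and its sign turned with median centring (0.05), with the 4 libraries with Y-linked transcripts (0.12) and without AQP5+/+ replicate 1 (0.01). Skeletal muscle, where Aqp4 is also known, was represented by transcripts in AQP5+/+ replicate 2, and the part of muscle in the Aqp4 values was not tested.

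Aqp9 was the only tested aquaporin with a higher mean in AQP5-/- libraries. Its level was 4.32, 5.27 and 4.23 FPKM in AQP5-/- libraries, against 1.17, 5.10 and 1.39 FPKM in AQP5+/+ libraries. The groups overlapped because AQP5+/+ replicate 2 lay inside the AQP5-/- range. The log2 difference was 0.96 (SE 0.431, 95% interval -0.03 to 1.96), with an unadjusted p of 0.0564 and an adjusted p of 0.432 with limma, and it did not pass the threshold. Aqp9 separated the libraries by Y-linked transcripts instead. Its mean was 4.73 FPKM in the 4 libraries with them and 1.28 FPKM in the 2 libraries without, a ratio of 3.69. Such a split, with every library with Y-linked transcripts above those without, was found for 8.02% of all genes tested, and a split in either direction for 43.6%. With a term for Y-linked transcripts, in which AQP5+/+ replicate 2 is the one wild type library set against AQP5-/-, the log2 difference of Aqp9 was -0.14. Such a fit assumes that the level and spread of this library are those of wild type libraries with Y-linked transcripts. AQP5+/+ replicate 2 also held salivary (summed 1748 FPKM) and skeletal muscle transcripts (88.1 FPKM). Y-linked transcripts, these other tissues and the animal cannot be told apart in it, here or where the term is used below.

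Without AQP5+/+ replicate 2 the log2 difference of Aqp9 was 1.52 (adjusted p = 0.00641 with limma), and 1.55 (adjusted p = 0.0218) without both libraries with salivary transcripts. In these fits genotype and Y-linked transcripts coincide and cannot be told apart. Aqp9 is also known from leukocytes, and 9 myeloid markers summed to 98.6, 146.9 and 200.8 FPKM in AQP5-/- libraries, against 47.7, 64.6 and 99.1 FPKM in AQP5+/+ libraries. The part of leukocytes in the Aqp9 values was not tested. Of 8 myeloid markers tested, 1 was higher in AQP5-/-, the macrophage and neutrophil lysozyme Lyz2 (log2 difference 1.24, adjusted p = 0.431 with limma), and 0 were lower, against 1.16% higher among all genes. Lyz2 did not pass without AQP5-/- replicate 3 (0.97) or without AQP5+/+ replicate 1 (0.98). Most of the myeloid sum was Lyz2, with 70.2, 114.6 and 157.4 FPKM in AQP5-/- libraries, against 31.6, 43.3 and 69.1 FPKM in AQP5+/+ libraries. Of the 8 markers, 2 had a log2 difference below 0, S100a8 (-0.26) and Csf3r (-0.31), against 67.0% of all genes. The conversion of Aqp9 fragments to FPKM was not uniform, with 30.8 scaled counts per FPKM in AQP5+/+ replicate 3 and 44.1 to 47.8 in the other libraries. The ratio of highest to lowest was 1.55, and 9.79% of 10612 genes had one at least as large. In estimated fragments Aqp9 had 204, 201 and 221 in AQP5-/- libraries, against 61, 254 and 36 in AQP5+/+ libraries, which is the same order of libraries by the presence of Y-linked transcripts.

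**Figure D2:**
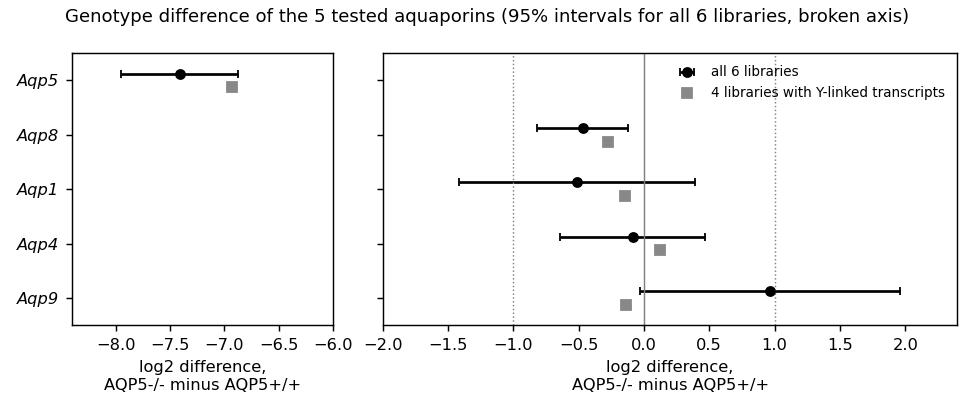
Log2 difference (AQP5-/- minus AQP5+/+, on log2(FPKM + 0.5)) of the 5 tested aquaporins from all 6 libraries (black circles with 95% intervals) and from the 4 libraries with Y-linked transcripts (grey squares, 3 AQP5-/- against AQP5+/+ replicate 2, plotted without intervals). The horizontal axis is broken between the panels, which have different scales, and dotted lines mark a fold of 2. Aqp5 lies near -7 in both fits, and Aqp9 lies at 0.96 with all libraries and at -0.14 with the 4 libraries.

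The other aquaporins were at the limit of detection in both genotypes. Aqp3 had 0.0651, 0.190 and 0.205 FPKM in AQP5-/- libraries, against 0.209, 0.0921 and 0 FPKM in AQP5+/+ libraries, which stood for 2 to 7 fragments in AQP5-/- and 0 to 7 in AQP5+/+ libraries. Aqp7 had 0.0915 FPKM in AQP5-/- replicate 2 and 0 in the other AQP5-/- libraries, against 0.0246 FPKM in AQP5+/+ replicate 2 and 0 in the other AQP5+/+ libraries. The level of Aqp11 was 0.0910, 0 and 0.0820 FPKM in AQP5-/- libraries, against 0.0416, 0.0427 and 0 FPKM in AQP5+/+ libraries. None of these 3 genes had a mean of 0.5 FPKM, so they were not tested, and the depth does not allow a difference to be seen. A count of 0 allows up to 3 fragments in a library, for counting error only. Aqp7 is known as the adipocyte channel, and of 9 adipocyte markers 1, the hormone Lep, was at 0 in all libraries. The filter was passed by 2 of them, Fabp4 (1.05 to 7.30 FPKM) and Lipe (1.39 to 4.23 FPKM). The others were under it, with 0 to 0.567 FPKM for Adipoq, Plin1, Cidec, Retn and Cfd, and 0.150 to 0.865 FPKM for Plin4. The part of fat in the Aqp7 values was not tested.

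Aqp2 and Aqp6, which flank Aqp5 on chromosome 15 and are known as kidney channels, gave no sign of expression beyond a few fragments. Aqp2 had 0.126, 0.245 and 0 FPKM in AQP5-/- libraries, against 0.0767, 0 and 0 FPKM in AQP5+/+ libraries, or 0 to 5 fragments in AQP5-/- and 0 to 2 in AQP5+/+ libraries. Aqp6 had 0.0320 FPKM in AQP5-/- replicate 2 and was at 0 in the other 5 libraries. Aqp12 and Mip were at 0 in all 6 libraries. Of the 2541 circRNAs (closed RNA loops recognized by reads across a back-splice junction) counted in the same libraries with 14332 junction reads in all, 0 came from an aquaporin gene.

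By level, the order in AQP5-/- libraries was Aqp8, Aqp9, Aqp1, Aqp4, Aqp5, Aqp3, Aqp11 and Aqp7, and in AQP5+/+ libraries it was Aqp5, Aqp8, Aqp1, Aqp9, Aqp4, Aqp3, Aqp11 and Aqp7. Aqp1 and Aqp9 overlapped over the libraries of each genotype, so their order was not resolved. Aqp5 lay below Aqp4 in every AQP5-/- library and overlapped with the range of Aqp3. The ranges of Aqp3, Aqp11 and Aqp7 overlapped in both genotypes, so the order of these low genes was not resolved. In AQP5+/+ libraries Aqp5 was 2.80 to 3.96 times as high as Aqp8. Aqp8 stood between percentiles 89.8 and 92.8 of the genes detected in AQP5-/- libraries and between percentiles 93.4 and 94.1 in AQP5+/+ libraries.

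The summed level of all 12 aquaporins was 36.4 ± 3.38 FPKM in AQP5-/- and 175.0 ± 38.0 FPKM in AQP5+/+ libraries (SD, n = 3 each). Aqp5 made up 0.659% ± 0.300 of this sum in AQP5-/- and 72.6% ± 4.71 in AQP5+/+ libraries. The aquaporins other than Aqp5 summed to 37.3, 38.9 and 32.4 FPKM in AQP5-/- libraries, against 45.3, 42.2 and 53.0 FPKM in AQP5+/+ libraries. The groups did not overlap, and the AQP5-/- mean was 0.773 of the AQP5+/+ mean, with a difference of -10.6 FPKM. With each library scaled to the same median the mean was 38.0 ± 3.70 FPKM in AQP5-/- and 44.6 ± 4.12 FPKM in AQP5+/+ libraries, a difference of -6.62 FPKM, and the groups overlapped. No test was made on these sums. Within the aquaporins other than Aqp5, Aqp8 held 72.6% ± 5.26 in AQP5-/- and 78.3% ± 6.57 in AQP5+/+ libraries. Aqp1 held 12.0% ± 3.81 in AQP5-/- and 14.2% ± 7.16 in AQP5+/+ libraries. Aqp9 held 12.7% ± 1.02 in AQP5-/- and 5.77% ± 5.48 in AQP5+/+ libraries. The sum of the channels other than Aqp5 in AQP5-/- libraries was below the 89.0 to 153.8 FPKM of Aqp5 alone in AQP5+/+ libraries.

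**Figure D3:**
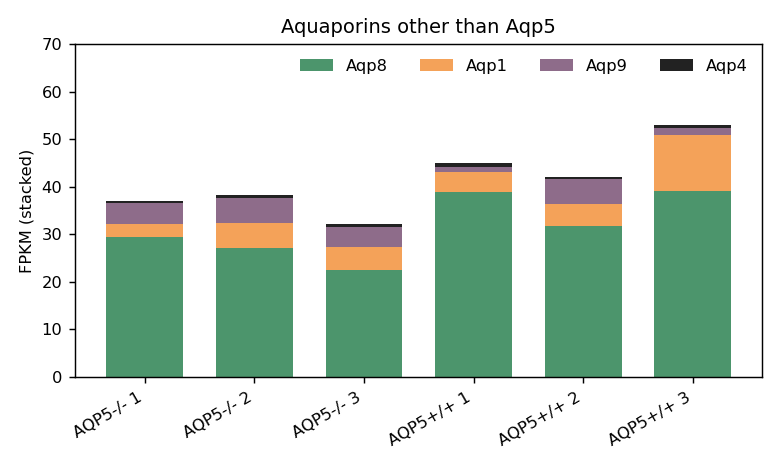
Stacked FPKM of Aqp8, Aqp1, Aqp9 and Aqp4 in each library, with the 3 AQP5-/- libraries left of the 3 AQP5+/+ libraries and Aqp5 left out. The AQP5-/- bars end below the AQP5+/+ bars, Aqp8 is the largest layer in all 6 libraries, and the Aqp9 layer is wide in the AQP5-/- libraries and AQP5+/+ replicate 2.

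The genes around Aqp5 were examined for changes near the edited site. Besides Aqp5, 24 genes of the table had a locus within 500000 bases, of which 15 were tested and 1 passed the threshold, against 2.04% of all genes. This was Faim2, an inhibitor of Fas-induced cell death known from neurons, whose midpoint lies at -75.1 kb from the Aqp5 start. Its level was 11.9, 14.9 and 14.7 FPKM in AQP5-/- libraries, against 0.217, 11.3 and 0.256 FPKM in AQP5+/+ libraries. As for Aqp9, AQP5+/+ replicate 2 stood with the AQP5-/- libraries. The log2 difference of Faim2 was 2.94 (SE 0.966, 95% interval 0.70 to 5.18), with an unadjusted p of 0.0164 and an adjusted p of 0.431 with limma, and it was 0.28 with a term for Y-linked transcripts. It was 1.80 on estimated fragments with edgeR and with DESeq2, where it did not pass the threshold, nor did it pass without AQP5+/+ replicate 1 or without replicate 3 (0 neighbours in each case). The other 14 tested neighbours did not pass. The log2 difference was -0.59 for Lima1, an actin-binding gene (0.12 with a term for Y-linked transcripts), -0.43 for Tmbim6, a suppressor of cell death (-0.02 with the term), -0.48 for Prpf40b, a splicing factor (-0.35 with the term), and 0.57 for Fmnl3, a formin (0.27 with the term). On estimated fragments with edgeR that of Prpf40b was -0.27.

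**Figure D4:**
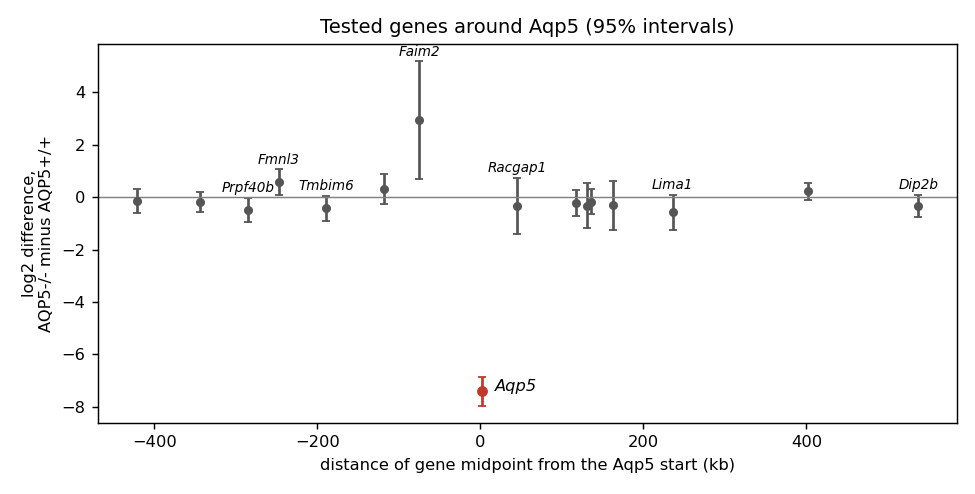
Log2 difference (AQP5-/- minus AQP5+/+, on log2(FPKM + 0.5)) with 95% intervals of Aqp5 (red) and the tested genes around it (grey), against the distance of each gene's midpoint from the Aqp5 start in kb. Aqp5 lies at -7.41, Faim2 at 2.94 with an interval of 0.70 to 5.18, and the other neighbours between -0.59 and 0.57.

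Genes that work with the aquaporins were described by lists of general knowledge. The list of partners of water secretion held ion transporters, channels and receptors, and also Ezr and Pip. Of its 11 tested genes, 0 passed the threshold in either direction. Their median log2 difference was -0.10, against -0.12 over all genes. Kcnma1, a calcium-activated potassium channel, had 24.6, 26.1 and 25.2 FPKM in AQP5-/- libraries, against 43.5, 26.4 and 47.4 FPKM in AQP5+/+ libraries, with AQP5+/+ replicate 2 next to the AQP5-/- values. Kcnn4, also a calcium-activated potassium channel, had 31.0, 24.5 and 22.5 FPKM in AQP5-/- libraries, against 16.9, 22.4 and 20.7 FPKM in AQP5+/+ libraries. The genotypes did not overlap for either gene, lower in AQP5-/- for Kcnma1 (as for 11.1% of all genes) and higher for Kcnn4 (as for 3.86%). The log2 difference of Kcnma1 was -0.57, and -0.06 with a term for Y-linked transcripts, and that of Kcnn4 was 0.37, and 0.20 with the term. Of 9 tested genes of the osmotic stress response, 0 passed, with a median of -0.07. Among them was Nfat5, the transcription factor that answers to high salt, with a log2 difference of -0.47 (adjusted p = 0.431 with limma), and its target Akr1b3, an aldose reductase, with -0.63. With a term for Y-linked transcripts that of Nfat5 was -0.18 and that of Akr1b3 -0.12, and AQP5+/+ replicate 2 (30.8 FPKM of Akr1b3) lay next to the AQP5-/- libraries (28.2, 30.7 and 26.3 FPKM).

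Of 4 tested genes of the paracellular route, along which water and cations pass between cells, 1 was higher in AQP5-/- and 0 were lower, against 1.16% higher and 0.883% lower among all genes. Cldn2, a claudin that forms a pore for cations and water, had 1.58, 2.69 and 2.93 FPKM in AQP5-/- libraries, against 0.347, 0.673 and 0.453 FPKM in AQP5+/+ libraries. The groups did not overlap, as for 3.86% of all genes in this direction. Cldn10, the most abundant of the 4, had 103.3, 97.9 and 112.6 FPKM in AQP5-/- libraries, against 82.9, 96.8 and 79.1 FPKM in AQP5+/+ libraries. Its groups did not overlap either, and its log2 difference was 0.28 (adjusted p = 0.442 with limma), which did not pass. The log2 difference of Cldn2 was 1.53 (SE 0.269, 95% interval 0.91 to 2.15), with an unadjusted p of 5.00e-04 and an adjusted p of 0.431 with limma. Cldn2 also had all libraries with Y-linked transcripts above those without, and with a term for them its log2 difference was 1.27. Leaving aside the fits that set AQP5+/+ replicate 2 alone against AQP5-/-, Cldn2 passed the threshold under all alternatives. Its adjusted p was 2.53e-05 with DESeq2 and 0.361 with edgeR on estimated fragments.

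Of 9 tested genes of glycerol handling, the processes served by aquaglyceroporins, 0 passed, with a median of -0.33. Dgat1, which completes triglyceride synthesis, had a log2 difference of -0.63 (-0.22 with a term for Y-linked transcripts), and that of Agpat2, an earlier enzyme of the same path, was 0.40 (0.37 with the term). Of 4 tested genes that anchor Aqp4 at the membrane, 0 passed, with a median of -0.49. Dmd (dystrophin) had a log2 difference of -0.76, which was -0.29 with a term for Y-linked transcripts and -0.47 without AQP5-/- replicate 1. That of Dtna (dystrobrevin alpha) was -0.71, and -0.85 with the term. This term sets AQP5-/- against AQP5+/+ replicate 2, which held skeletal muscle transcripts (summed 88.1 FPKM). The part of muscle in the Dmd and Dtna values was not tested. Over these 5 lists, 1 of 37 tested entries, Cldn2, passed the threshold, against 2.04% of all genes tested, so that the lists as a whole were near the background.

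The libraries in which an aquaporin was high were compared with those of all genes with a mean of at least 1 FPKM, as a description over 6 libraries that share their genotype and Y-linked grouping. The patterns most like that of Aqp9 were those of Gpr160, an orphan receptor (Pearson r = 0.999 on the log2 scale), Stt3b, a subunit of oligosaccharyltransferase (0.998), and Pgf, placental growth factor (0.996). Gpr160 had 5.59, 7.49 and 5.70 FPKM in AQP5-/- libraries, against 0.907, 7.06 and 1.37 FPKM in AQP5+/+ libraries, and Pgf had 24.1, 40.8 and 28.0 FPKM in AQP5-/- libraries, against 1.89, 35.2 and 1.91 FPKM in AQP5+/+ libraries. In both, AQP5+/+ replicate 2 was high. For Aqp8 they were Ivd, a mitochondrial enzyme of leucine breakdown (0.998), Sytl1, a synaptotagmin-like protein (0.993), and Slc48a1, a haem transporter (0.991). Ivd had 57.3, 53.9 and 44.0 FPKM in AQP5-/- libraries, against 82.4, 63.1 and 82.8 FPKM in AQP5+/+ libraries.

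For Aqp5 the most alike were Cyp4f13 (0.992), a cytochrome P450, Dpcd (0.990) and Ddo (0.989), D-aspartate oxidase. Their differences were far smaller than that of Aqp5. Cyp4f13 had 4.52, 4.44 and 4.53 FPKM in AQP5-/- libraries, against 8.05, 6.97 and 8.17 FPKM in AQP5+/+ libraries. Among the genes most like Aqp1 were Ube2f (0.991) and G0s2 (0.986), of which G0s2, an inhibitor of fat breakdown, had 30.3, 47.4 and 44.3 FPKM in AQP5-/- libraries, against 46.2, 43.4 and 111.2 FPKM in AQP5+/+ libraries. This repeats the high AQP5+/+ replicate 3. For Aqp4 they were C230081A13Rik (0.996), Coa3 (0.996) and Zzz3 (0.995). Among the aquaporins themselves, the Pearson r on the log2 scale was 0.88 for Aqp5 with Aqp8. For Aqp9 it was -0.70 with Aqp5, -0.80 with Aqp8, -0.65 with Aqp4 and -0.45 with Aqp1. Aqp5 was near 0 in all AQP5-/- libraries, so its correlations mainly restate the genotype differences given above.

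**Figure D5:**
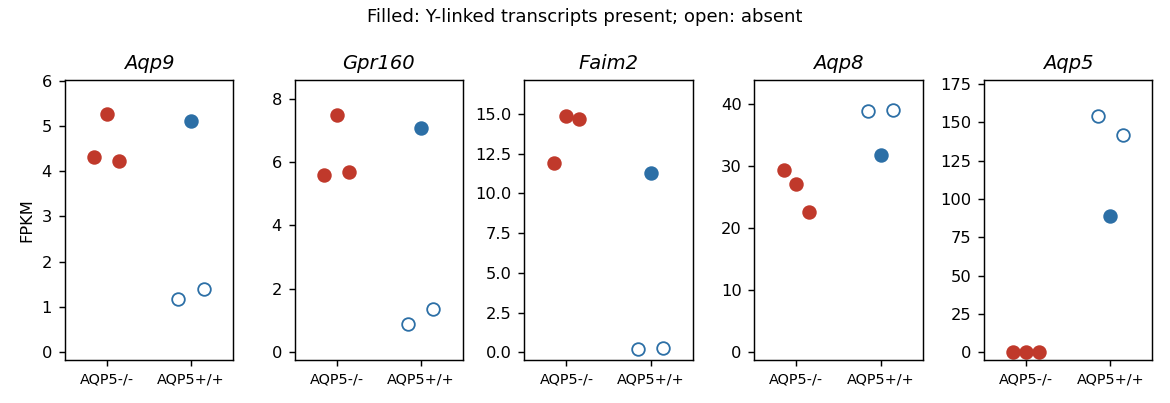
FPKM of Aqp9, Gpr160, Faim2, Aqp8 and Aqp5 by library, with AQP5-/- (red) left of AQP5+/+ (blue), filled points for libraries with Y-linked transcripts and open points for those without, and a linear axis for each gene. For Aqp9, Gpr160 and Faim2 the filled AQP5+/+ point (replicate 2, with 5.10, 7.06 and 11.3 FPKM) stands with the AQP5-/- points, and for Aqp5 it stands with the AQP5+/+ points.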

How the data were processed

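The data were 3 AQP5-/- and 3 AQP5+/+ RNA libraries of the lacrimal gland, and groups were taken from the sample labels. The paper names Ribo-Zero and TruSeq kits and the labels name NEBNext kits. FPKM of each protein-coding gene in each library were computed by the authors. Per the labels, mm10, HISAT2 2.0.4, Cufflinks and Cuffdiff 2.2.1 were used, in an order not stated. The deposited estimated counts beside them carry a scaling factor that differs between libraries. Each library's values were divided by the median of its values near 1 and rounded to give estimated fragments, with 89.7% to 90.7% of values whole within 0.02. Their totals of 11244579 to 13723134 fragments set the precision of low genes. The circRNA junction counts were made by the authors, who aligned reads with STAR 2.5.1b and called circRNAs with DCC, and were used as deposited. Use of strand for the mRNA values is not stated, so overlapping genes are uncertain. Coordinates and promoter sequences are from RefSeq GRCm38.p6, the assembly of mm10, and loci of neighbours are those of the deposited table.

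Computation used R 4.3.3 with limma 3.58.1, edgeR 4.0.16 and DESeq2 1.42.0, and Python 3.11.15. Genotypes were compared on log2(FPKM + 0.5) by limma, using lmFit and a trended eBayes, over the 11772 genes whose mean reached 0.5 FPKM. This scale understates the change of low genes. The p-values were adjusted by Benjamini-Hochberg over all of them. The call rule was that of the paper, a fold of 2 or more with p under 0.05 before adjustment, and the adjusted p is given beside it. The members, gene lists and tests were chosen with earlier results of these data known. The text names all aquaporins, the genes around Aqp5, list genes past the threshold with up to 3 others of smallest p in each list, and the 3 genes most like each tested aquaporin, and of these the ones that bear on the results. Alternatives covered the pseudocount, the filter, centring, quantile normalization, the variance trend, edgeR and DESeq2, the replicate block and each library left out. Fits with a term for Y-linked transcripts, with the 4 libraries that hold them, and without the 2 libraries with salivary transcripts were chosen after seeing the data. The scripts were tested on simulated data. Columns with the authors' own comparisons and normalized circRNA values were not used.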

Additional observations from a re-analysis of the deposited data

How the results depend on the processing

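Aqp5 passed the threshold under all 19 alternatives, and the log2 differences of Aqp1 and Aqp8 kept their sign and did not pass under any. Aqp9 passed as higher in AQP5-/- without the libraries with salivary transcripts and without AQP5+/+ replicate 2 (1 aquaporin in each case), so that with each library left out 0 to 1 aquaporins were higher and 1 was lower. The fit with a term for Y-linked transcripts and that with only the libraries that hold them both set AQP5-/- against AQP5+/+ replicate 2. They therefore share their log2 differences and are not separate checks. These turned to -0.14 for Aqp9, 0.12 for Aqp4 and 0.12 for Lima1. That of Aqp4 was also 0.052 with median centring and 0.0083 without AQP5+/+ replicate 1 (-0.19 to 0.0083 with each library left out). Among all mRNAs 136 were higher and 104 lower in AQP5-/-. The lower ones numbered 168 at a pseudocount of 0.1, 58 with median centring (172 higher), 161 with edgeR (144 higher) and 168 with DESeq2, and the higher ones 90 without a filter. With a term for Y-linked transcripts 59 were higher and 45 lower, with only the libraries that hold them 66 and 54, and without the libraries with salivary transcripts 346 and 382. With each library left out, 42 to 282 were higher and 39 to 375 lower, with the highest counts without AQP5+/+ replicate 2. Of the genes around Aqp5, 0 passed with edgeR, with DESeq2, with a term for Y-linked transcripts and with only the libraries that hold them, 2 without the libraries with salivary transcripts (Faim2 and Lima1), and 0 to 1 with each library left out. Of the list genes, 1 to 2 passed with each library left out, the second being Sgk1, a salt-responsive kinase, without AQP5+/+ replicate 3. The difference in summed FPKM of the aquaporins other than Aqp5 ranged from -12.96 to -7.57 with each library left out. The replicate numbers did not pair the libraries (correlations of deviations -0.139, -0.184 and -0.150), and with a replicate block 157 mRNAs were higher and 129 lower, 1 aquaporin was lower and 0 were higher. The cause of these changes was not tested. With 3 libraries per group and a few fragments per library, differences of Aqp3, Aqp7 and Aqp11 were not detectable at this depth.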
